A study of Mus musculus with 12 samples.

Results

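The 44 genes described here belong to the interferon response and to antigen presentation. They were picked by symbol from the 36144 gene symbols of a table of TPM values, in which the level of a transcript is scaled for its length and to the total of its library. By role they are 24 interferon-induced effectors, 10 sensors and factors of the response, and 10 genes of antigen presentation. All 44 symbols were found, and 43 of them were among the 11544 genes that reached 1 TPM in at least 3 of 12 libraries and were tested. The exception was Oas2, an oligoadenylate synthetase, which lay between 0 and 0.143 TPM.

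The cells were primary hepatocytes, the metabolic cells of the liver, isolated with collagenase from a WT C57/Bl6J mouse and held for 16 h in medium without serum. RNA selected by its poly-A tail was sequenced in 12 libraries, 3 from each of 4 groups. Cells of the FDMn group had 6 µM manganese chloride through the 16 h and were then treated for 5 h with 10 µM forskolin, which switches on adenylate cyclase and so cAMP signalling, together with 1 µM of the synthetic glucocorticoid dexamethasone. Cells of the FDI group received insulin for 1 h and then the same forskolin and dexamethasone. The design text gives the insulin dose as 100 nM, while the protocol in the labels names 1 or 100 nM. FD cells had forskolin and dexamethasone without insulin or manganese, and Mock cells had none of these agents. The labels name no interferon, infection or other immune stimulus in any group. Neither manganese nor insulin was given by itself to any group, and in FDMn against FDI the agent and its length of exposure cannot be told apart. The labels speak of a single mouse and do not say that replicates were separate cultures, so p-values measure only the spread between these libraries, which may be technical.

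Type I and type III interferons act through receptors that activate the kinases JAK1 and TYK2, and these lead to a complex with STAT2 and IRF9 that binds the interferon-stimulated response element (ISRE). Interferon gamma acts through JAK1 and JAK2 and leads to binding at the gamma-activated site (GAS). The genes induced in this way block or degrade viral RNA and protein, sense foreign RNA, and build the route by which peptides cut by the immunoproteasome are pumped into the endoplasmic reticulum by TAP and loaded onto MHC class I with B2m. Hepatocytes express this machinery at a basal level and respond to interferon, and in the liver it limits hepatitis viruses.

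Promoter sequence shows how closely the sites for these factors lie to the start of some members, and the stretches below were chosen to show them. RefSeq promoter windows (build GRCm38.p6, 250 bases before to 50 bases after a gene's start) were matched by symbol for 33 of the 44 members. The stretches are written 5′ to 3′ in the direction of transcription, and capitals mark the match. In the Isg15, Ifit3, Gbp2, Gbp3, Gbp7, Bst2 and B2m stretches this is the ISRE core, GAAA and GAAA with any 2 bases between them, on either strand and with overlapping matches joined. In the Irf1 stretch it is the GAS letters TTCNNNGAA. All lie upstream of the RefSeq start. In GENCODE M21 the outermost starts of Gbp2 and Gbp3 fall inside the stretches shown for them.
Isg15 (chr4:156200852-156200921, minus strand, positions -103 to -34 from the start): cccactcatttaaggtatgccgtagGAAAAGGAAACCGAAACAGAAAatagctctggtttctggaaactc
Ifit3 (chr19:34583359-34583428, plus strand, positions -170 to -101 from the start): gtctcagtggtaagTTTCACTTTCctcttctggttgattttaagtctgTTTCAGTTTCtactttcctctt
Gbp2 (chr3:142620573-142620642, plus strand, positions -90 to -21 from the start): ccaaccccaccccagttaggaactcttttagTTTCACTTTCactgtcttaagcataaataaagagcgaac
Gbp3 (chr3:142559971-142560040, plus strand, positions -73 to -4 from the start): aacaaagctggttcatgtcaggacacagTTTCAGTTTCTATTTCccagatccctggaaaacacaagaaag
Gbp7 (chr3:142530252-142530321, plus strand, positions -84 to -15 from the start): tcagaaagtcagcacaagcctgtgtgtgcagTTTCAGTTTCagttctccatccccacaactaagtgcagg
Bst2 (chr8:71537561-71537630, minus strand, positions -158 to -89 from the start): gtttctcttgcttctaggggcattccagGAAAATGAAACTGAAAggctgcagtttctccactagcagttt
B2m (chr2:122147517-122147586, plus strand, positions -170 to -101 from the start): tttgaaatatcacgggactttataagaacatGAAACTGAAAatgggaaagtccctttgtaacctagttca
Irf1 (chr11:53769893-53769962, plus strand, positions -121 to -52 from the start): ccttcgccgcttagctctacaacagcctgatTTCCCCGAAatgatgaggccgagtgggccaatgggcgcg

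Isg15 held 3 overlapping ISRE matches in a single run, and Gbp3 and Bst2 held 2 each in this overlapping form. Ifit3 held 2 separate matches. The ISRE core was found in 14 of the 33 members (42.4%), against 3.99% of the 27025 genes with a window. GAS letters were found in 8 of 33 members (24.2%), against 9.55% of genes. The cAMP response element TGACGTCA was found in none of the 33, against 2.03% of genes, and the glucocorticoid response element, searched as GNACA and TGTNC with any 3 bases between them, also in none, against 0.537% of genes. With shares this low over all genes, 33 members are too few to show a lack of either site. Only full sites within these windows were searched. All motifs were searched on both strands. A match describes the letters in this window and not binding.

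**Figure D1:**
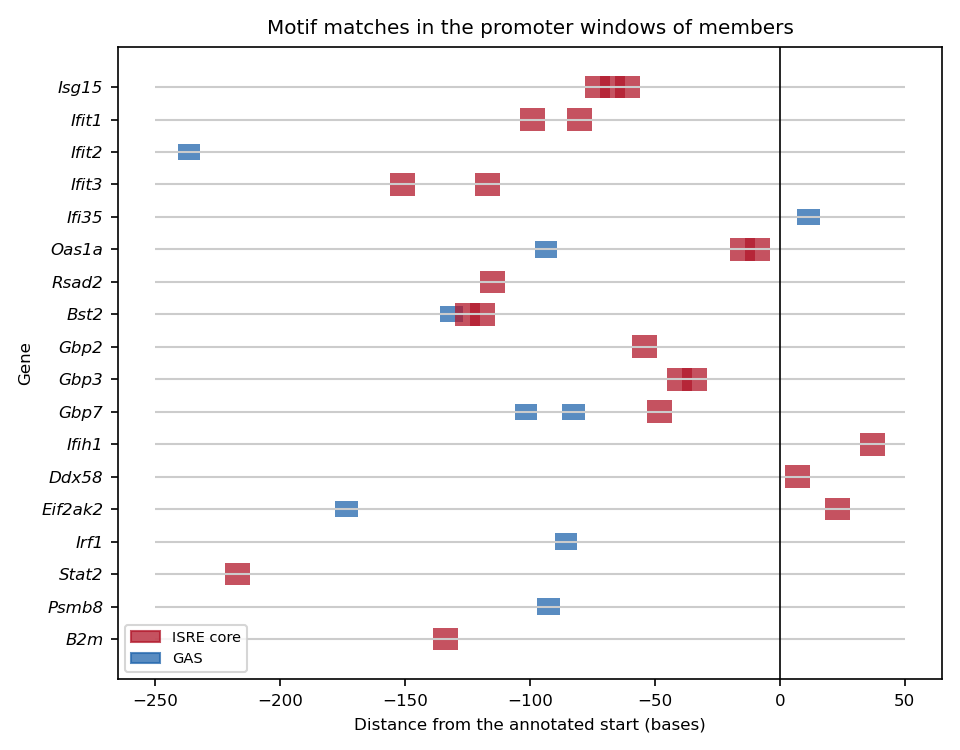
Positions of ISRE core and GAS letters (coloured boxes) in the RefSeq promoter windows of the 18 members with either motif. The x axis is the distance in bases from the annotated start (vertical line) and each row is a gene. ISRE matches stand in 14 rows and GAS matches in 8.

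Most members were expressed in these cells without added interferon. B2m was the highest, and H2-K1 and H2-D1, the class I heavy chains, followed it. Their levels overlap in sequence with other class I genes: 22.8% of the 31-base words of H2-K1 and 26.9% of those of H2-D1 occur in transcripts of another gene. The same share was 68.8% for Oas1a (with Oas1g) and 61.8% for Ifit3 (with Ifit3b), so these levels are uncertain. Tapbp shared 26.9%, mostly with an antisense gene, and each of the other members shared at most 14.7%. The members lie on 14 chromosomes. Of the 44, 8 lie on chromosome 17, of which Psmb8, Psmb9, Tap1, Tap2, Tapbp, H2-K1 and H2-D1 lie in or near the MHC and Eif2ak2 lies apart from it, and 6 lie on chromosome 16. Parp9 and Dtx3l start 681 bases apart on opposite strands of chromosome 16 and share 458 exonic bases, and Psmb9 and Tap1 start 211 bases apart on chromosome 17 and share 212. The use of strand is not stated, so reads of such partners cannot be told apart.

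Between 10900 and 11161 genes per library reached 1 TPM, and replicates of a group correlated across genes with r from 0.981 to 0.991. TPM keeps no read number, so the depth is unknown. FDMn replicate 2 stood apart for the members. It was the highest of its group for 34 of the 43 members tested (79.1%), against 36.4% of all genes tested, and the highest of all 12 libraries for 16 of them. The median member lay 0.18 above its group mean on the log2 scale in this library, against 0.01 for the median gene. Counts of calls for FDMn, and the FDMn differences of the members that follow, are therefore also given without it. FD replicate 3 lay apart from FD replicates 1 and 2 on the second principal component over all genes, with a score of 7.98 against 22.3 and 29.0.

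Changes are differences of log2(TPM + 1), which understates changes of low genes. They were tested with limma over all 12 libraries, two-sided, and called at a Benjamini-Hochberg adjusted p under 0.05 over the 11544 genes. The 6 comparisons share libraries, so calls in different comparisons are not independent of each other.

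**Figure D2:**
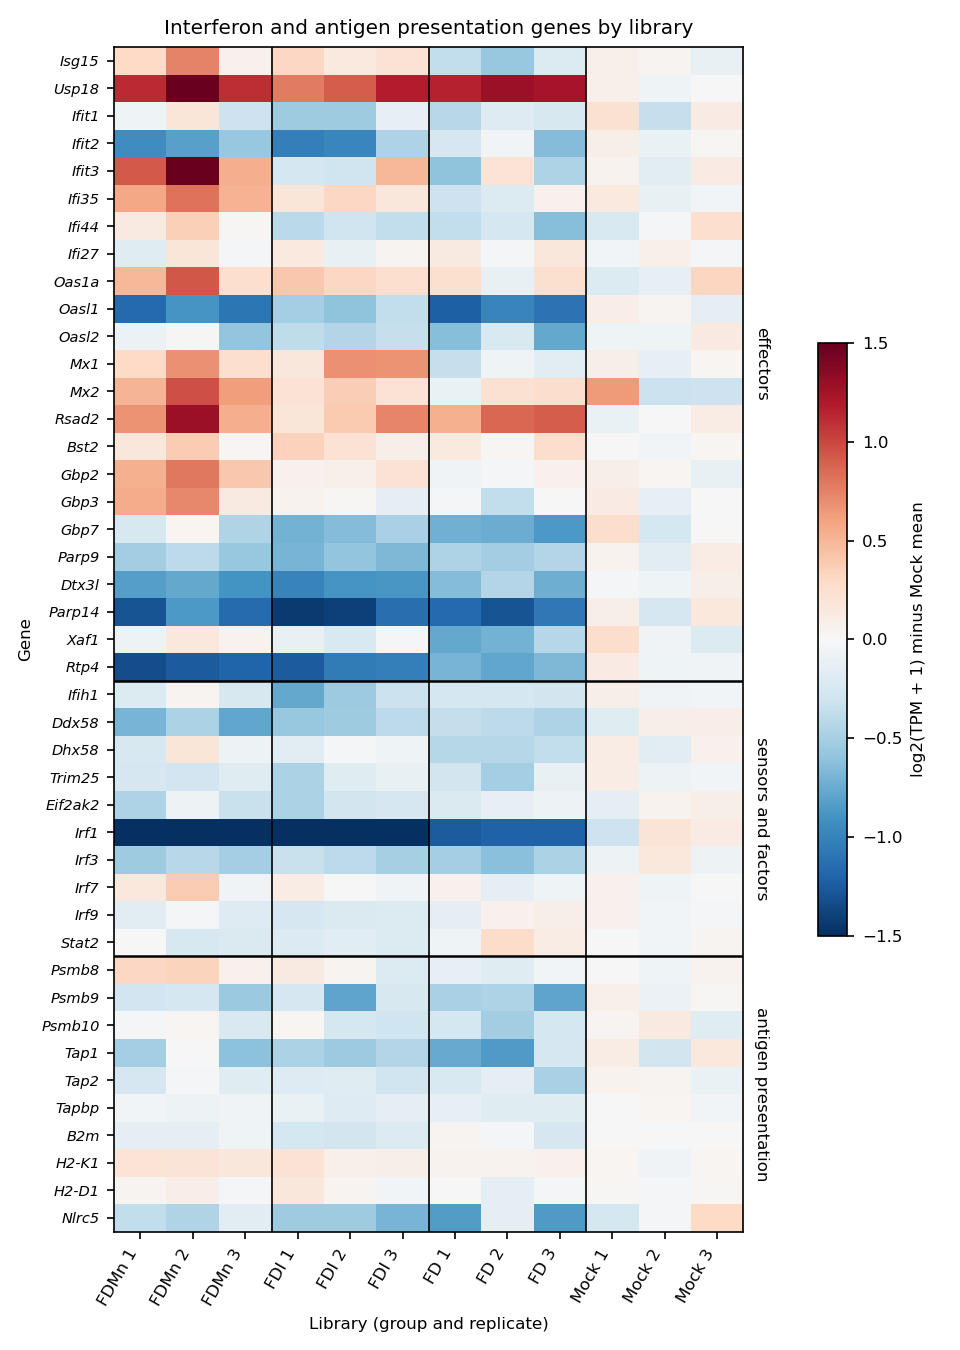
Level of each of the 43 tested members (rows, grouped by role) in each of the 12 libraries (columns), as log2(TPM + 1) minus the Mock mean of that gene. Red is above and blue below the Mock mean, and colours stop at 1.5 either way. Irf1, Parp14, Rtp4 and Oasl1 are blue in all FDMn and FD libraries, Usp18 is red in all 9 treated libraries, and FDMn replicate 2 is the reddest column among the effectors.

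FD against Mock asked what forskolin with dexamethasone changed. Of the 43 members tested, 2 were higher and 19 lower in FD cells. Over all genes tested, 41.1% were called in either direction: 11.2% were higher and 29.9% lower, so downward calls were common throughout; among members they made up 44.2%. The median member differed by -0.28, against -0.15 for the median of all genes. Part of this offset is set by scaling. With median-of-ratios scaling the median of all genes moved to -0.01, and lower calls made up 49.1% of all calls in place of 72.7%. The members' calls then came to 6 higher and 10 lower, against 17.8% and 17.2% of all genes. With quantile normalization lower calls made up 55% of all calls, with 2 members higher and 11 lower, against 15.4% and 18.9% of all genes. Of the 21 members called, 12 kept their call under all 18 alternatives tried: Usp18, Oasl1, Rsad2, Gbp7, Parp9, Dtx3l, Parp14, Xaf1, Rtp4, Irf1, Irf3 and Psmb9.

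FDMn against FD asked what manganese added. Here 10 of the 43 members were higher in FDMn cells (23.3%, against 7.22% of all genes) and 1 was lower (2.33%, against 7.9%). Without FDMn replicate 2, 5 members were higher, all of them effectors, and the same 1 was lower, against 4.66% and 5.41% of all genes. The median member difference was 0.13 with all libraries and 0.08 without that library, against 0.003 for all genes. The count also rested on FD replicate 2, without which 6 were higher, against 5.49% of all genes. FDI against FD asked what insulin added: 5 members were higher in FDI cells (11.6%, against 10.2% of all genes) and 4 were lower (9.3%, against 4.35%). With median-of-ratios scaling 4 were higher and 5 lower, against 7.34% and 6.03% of all genes, while lower calls made up 45.1% of all calls in place of 30%. In FDMn against FDI, 6 members were higher in FDMn cells (14%, against 5.68% of all genes) and 1 lower (2.33%, against 11.9%). Without FDMn replicate 2 or without FDI replicate 1, a single member was higher, and without FDMn replicate 1 or FDI replicate 2 there were 3. In these fits 3.5% to 3.79% of all genes were higher. With median-of-ratios scaling lower calls made up 55.1% of all calls in that comparison, in place of 67.7%. With quantile normalization 9 members were higher in it, against 7.4% of all genes.

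**Figure D3:**
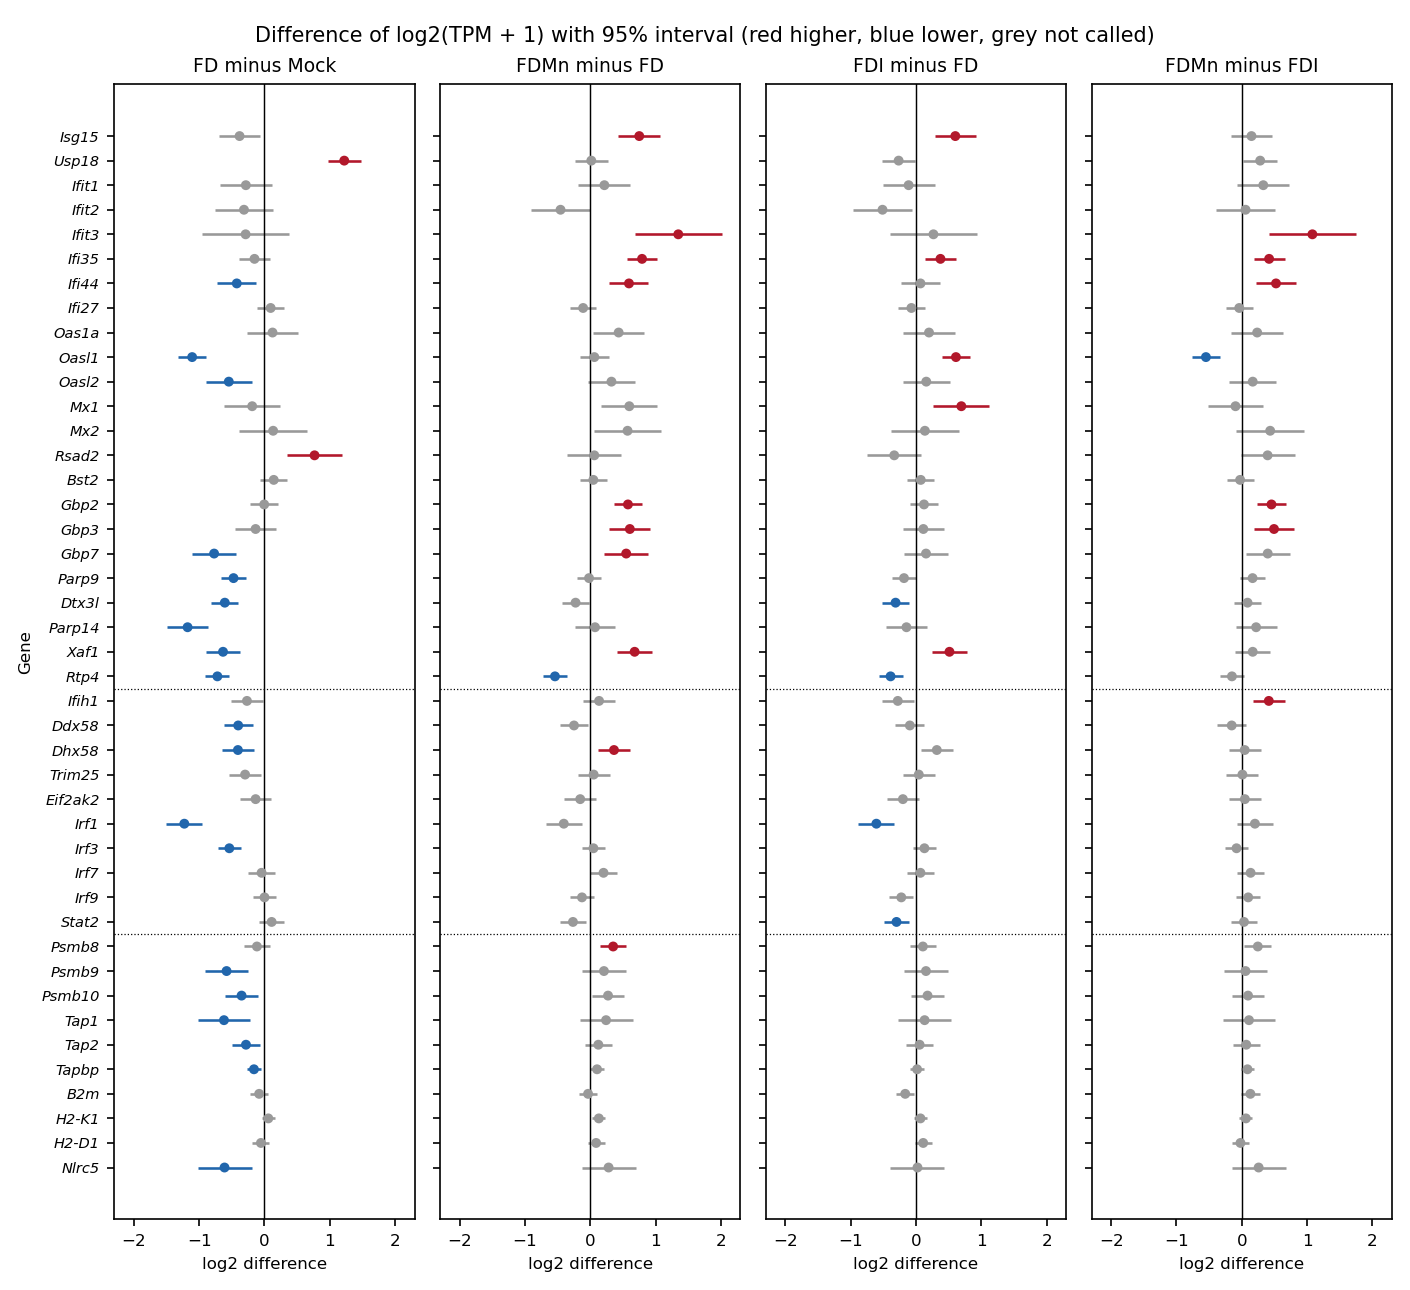
Difference of log2(TPM + 1) with its 95% interval for the 43 tested members (rows, by role) in 4 comparisons (panels), with red for members called higher, blue for lower and grey for not called. Blue prevails in FD minus Mock (19 lower, 2 higher, against 10 and 6 with median-of-ratios scaling) and red in FDMn minus FD (10 higher, 1 lower, against 5 and 1 without FDMn replicate 2).

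Among the 23 tested effectors, 2 were higher and 9 lower in FD cells than in Mock cells (8.7% and 39.1%, against 11.2% and 29.9% of all genes). Those that fell were Ifi44, Oasl1, Oasl2, Gbp7, Parp9, Dtx3l, Parp14, Xaf1 and Rtp4, with log2 differences between -1.18 and -0.42, and those that rose were Usp18 and Rsad2. With median-of-ratios scaling the calls of Ifi44 and Oasl2 ended, and Ifi27 and Bst2 were called higher. Oasl1, a protein related to the oligoadenylate synthetases that in mice restrains translation of Irf7 (chromosome 5, 114923240 to 114937915, plus strand), had 21.1, 26.1 and 22.6 TPM in FDMn libraries, 33.9, 31.8 and 37.6 TPM in FDI libraries, 20.4, 24.1 and 22.05 TPM in FD libraries and 52.6, 50.2 and 44.1 TPM in Mock libraries. Mock libraries were highest, FDI libraries lay between, and FDMn and FD libraries overlapped at the bottom. Its difference between FD and Mock was -1.11 ± 0.10 (SE; adjusted p = 3.32e-06), or -0.95 with median-of-ratios scaling. It was the 1 member lower in FDMn than in FDI cells, at -0.55 ± 0.10 (SE; adjusted p = 0.00298), and without FDMn replicate 2 this difference was -0.63. In FDI cells it was higher than in FD cells by 0.61 ± 0.10 (SE; adjusted p = 0.00172).

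Usp18, a protease that removes ISG15 from proteins and holds down signalling at the type I receptor (chromosome 6, 121245906 to 121270917, plus strand), had 27.96, 36.2 and 27.7 TPM in FDMn libraries, 21.9, 23.9 and 29.1 TPM in FDI libraries, 28.6, 31.3 and 30.2 TPM in FD libraries and 12.99, 11.7 and 12.2 TPM in Mock libraries. All 9 libraries given forskolin and dexamethasone lay above all 3 Mock libraries. FD cells differed from Mock cells by 1.22 ± 0.12 (SE; adjusted p = 5.3e-06), a 2.44-fold higher mean TPM. Between FDMn and FD cells it differed by 0.02 (95% interval -0.24 to 0.27), and by -0.11 without FDMn replicate 2. Rsad2, also called viperin, which makes a chain-terminating nucleotide, averaged 17.5 ± 2.53 TPM in FD cells and 9.80 ± 0.836 TPM in Mock cells (SD, n = 3 each), a difference of 0.77 ± 0.19 (SE; adjusted p = 0.00666). The FD and Mock libraries of Rsad2 did not overlap.

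Rtp4, a receptor transporter protein that inhibits flaviviruses (chromosome 16, 23520291 to 23614222, plus strand), had 12.3, 12.98 and 13.4 TPM in FDMn libraries, 12.97, 15.1 and 15.3 TPM in FDI libraries, 19.5, 18.3 and 19.8 TPM in FD libraries and 35.1, 30.8 and 31.03 TPM in Mock libraries. No FDMn or FDI library reached the lowest FD library, and no FD library reached the lowest Mock library. Its difference between FD and Mock cells was -0.72 ± 0.08 (SE; adjusted p = 3.02e-05). Between FDMn and FD cells it was -0.54 ± 0.08 (SE; adjusted p = 0.00127), and -0.54 without FDMn replicate 2, and between FDI and FD cells it was -0.39 ± 0.08 (SE; adjusted p = 0.00917). Rtp4 was the 1 member called lower in FDMn against FD. Its reads may be shared with an overlapping transcript of the same strand, which holds 12.5% of its 31-base words.

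Parp14, an ADP-ribosyltransferase and the effector with the largest fall in FD against Mock, averaged 6.84 ± 0.616 TPM in FD cells and 16.8 ± 2.57 TPM in Mock cells (SD, n = 3 each), a difference of -1.18 ± 0.14 (SE; adjusted p = 4.03e-05). The overlapping pair Parp9, an ADP-ribosyltransferase-family protein, and Dtx3l, the ubiquitin ligase it binds, fell as well, at -0.47 ± 0.09 (SE; adjusted p = 0.000802) and -0.61 ± 0.10 (SE; adjusted p = 0.000299). Gbp7, a guanylate-binding GTPase, averaged 3.80 ± 0.245 TPM in FD and 7.28 ± 1.52 TPM in Mock cells, a difference of -0.77 ± 0.15 (SE; adjusted p = 0.00167). In all 4 genes every FD library lay below every Mock library, but they were picked by their calls, and such separation was not counted over all genes. Parp9, Dtx3l and Parp14 lie close together on chromosome 16.

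With manganese, 8 of the 23 effectors rose in FDMn against FD and 1, Rtp4, fell (34.8% and 4.35%, against 7.22% and 7.9% of all genes). Without FDMn replicate 2, 5 rose and 1 fell, against 4.66% and 5.41% of all genes. The 8 that rose with all libraries were Isg15, Ifit3, Ifi35, Ifi44, Gbp2, Gbp3, Gbp7 and Xaf1. All 3 FDMn libraries lay above all 3 FD libraries in each, but these members were picked by their calls. The share of all genes separated in this way was not counted. Ifi44, a cytosolic protein, differed between FDMn and FD cells by 0.59 ± 0.14 (SE; adjusted p = 0.0129), a call that ended without FDMn replicate 2 at 0.50 (adjusted p = 0.0578). Ifi35, an interferon-induced leucine zipper protein, had 55.2, 64.7 and 52.9 TPM in FDMn libraries, 41.6, 45.3 and 41.2 TPM in FDI libraries, 29.1, 31.5 and 38.1 TPM in FD libraries and 40.5, 33.7 and 35.5 TPM in Mock libraries. The FDMn libraries were the highest, FDI libraries came next, and FD and Mock libraries overlapped. FDMn cells differed from FD cells by 0.79 ± 0.11 (SE; adjusted p = 0.000514), or 0.71 without FDMn replicate 2 (adjusted p = 0.00325). They differed from FDI cells by 0.42 ± 0.11 (SE; adjusted p = 0.0198), a call that ended without FDMn replicate 2 (adjusted p = 0.0847) and without FDI replicate 1 or 3. FDI cells differed from FD cells by 0.37 ± 0.11 (SE; adjusted p = 0.0381), a call that ended in 12 of the 18 alternatives, among them those without any 1 of the FDI libraries, FD replicate 1 or 2, FDMn replicate 1 or Mock replicate 3 (adjusted p up to 0.132).

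Gbp2, a guanylate-binding GTPase that coats intracellular pathogens, had 37.1, 44.7 and 33.8 TPM in FDMn libraries, 26.6, 26.7 and 29.7 TPM in FDI libraries, 24.4, 24.9 and 26.7 TPM in FD libraries and 26.98, 25.9 and 23.4 TPM in Mock libraries. FDI, FD and Mock libraries lay together between 23.4 and 29.7 TPM, and the FDMn libraries above them. Its difference was 0.58 ± 0.10 (SE; adjusted p = 0.00224) between FDMn and FD cells and 0.45 ± 0.10 (SE; adjusted p = 0.00807) between FDMn and FDI cells. Without FDMn replicate 2 these were 0.47 (adjusted p = 0.00847) and 0.35 (adjusted p = 0.032), so both calls held. Its neighbours Gbp3 and Gbp7, on the same stretch of chromosome 3, differed between FDMn and FD cells by 0.61 ± 0.14 (SE; adjusted p = 0.0145) and 0.55 ± 0.15 (SE; adjusted p = 0.0312). Those calls ended without FDMn replicate 2, with adjusted p of 0.0621 and 0.123. Both also ended without FDMn replicate 1 or FD replicate 2, and that of Gbp7 without FD replicate 1 or 3.

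Isg15, the ubiquitin-like modifier that Usp18 removes, had 39.6, 53.9 and 33.5 TPM in FDMn libraries, 39.7, 35.3 and 37.2 TPM in FDI libraries, 24.4, 21.2 and 27.6 TPM in FD libraries and 33.6, 32.8 and 29.4 TPM in Mock libraries. FD libraries were the lowest and overlapped with no library of another group, and FDMn and FDI libraries overlapped. Its differences were 0.75 ± 0.15 (SE; adjusted p = 0.00488) for FDMn against FD, 0.57 without FDMn replicate 2, and 0.60 ± 0.15 (SE; adjusted p = 0.0168) for FDI against FD. The FDI call ended without FDI replicate 1, FDI replicate 3 or FD replicate 2 (adjusted p up to 0.0648 over the alternatives). Ifit3, which binds other IFIT proteins on viral RNA, had 7.14, 13.1 and 5.24 TPM in FDMn libraries, 2.58, 2.48 and 5.04 TPM in FDI libraries, 1.82, 3.93 and 2.11 TPM in FD libraries and 3.44, 2.81 and 3.66 TPM in Mock libraries. FDMn replicate 2 held the highest value, 13.1 TPM, and FDI, FD and Mock libraries overlapped. It differed between FDMn and FD cells by 1.35 ± 0.31 (SE; adjusted p = 0.0119), and by 1.02 without FDMn replicate 2 (adjusted p = 0.0445). Ifit3b, its near-identical neighbour, averaged 2.05 ± 0.945 TPM in FDMn and 0.871 ± 0.488 TPM in FD cells (SD, n = 3 each), with no call.

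Xaf1, a pro-apoptotic inhibitor of XIAP, had 36.04, 42.4 and 39.6 TPM in FDMn libraries, 35.1, 32.4 and 37.2 TPM in FDI libraries, 21.98, 22.9 and 27.96 TPM in FD libraries and 45.8, 36.6 and 32.8 TPM in Mock libraries. FD libraries were the lowest, and FDMn, FDI and Mock libraries overlapped. FD cells differed from Mock cells by -0.63 ± 0.12 (SE; adjusted p = 0.00137), FDMn cells from FD cells by 0.68 ± 0.12 (SE; adjusted p = 0.00307) and FDI cells from FD cells by 0.51 ± 0.12 (SE; adjusted p = 0.0159). The FD libraries enter all 3 of these differences. The difference between FDMn and FD cells was 0.63 without FDMn replicate 2 (adjusted p = 0.0169). The FDI call ended without FDI replicate 1 or 3 or FD replicate 1 or 2 (adjusted p up to 0.0628). In FDI cells, Mx1, a dynamin-like GTPase against influenza that many laboratory mouse strains carry in defective form, was called higher than in FD cells. It stayed low, with 0.612, 1.30 and 1.29 TPM in FDI libraries against 0.132, 0.378 and 0.286 TPM in FD libraries, and the call ended without FDI replicate 2 or 3 or FD replicate 1 or 3 (adjusted p up to 0.12).

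Bst2, also called tetherin, which holds budding virus on the cell surface, was the effector with the highest level and had 288, 332 and 257 TPM in FDMn libraries, 323, 297 and 270.1 TPM in FDI libraries, 283, 257 and 305 TPM in FD libraries and 256, 248 and 259.7 TPM in Mock libraries. The groups overlapped except that all FDI libraries were above all Mock libraries, and no comparison passed the test. Its difference between FD and Mock cells was 0.14 (95% interval -0.06 to 0.35), and it was called higher at 0.30 with median-of-ratios scaling. In FDMn against Mock it was called higher with either other scaling and without FDMn replicate 3. Ifit1, an RNA-binding effector, and Ifi27, a small membrane protein, passed in no comparison of the main result either. They ranged over all libraries from 2.63 to 5.15 TPM and from 103 to 133 TPM.

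**Figure D4:**
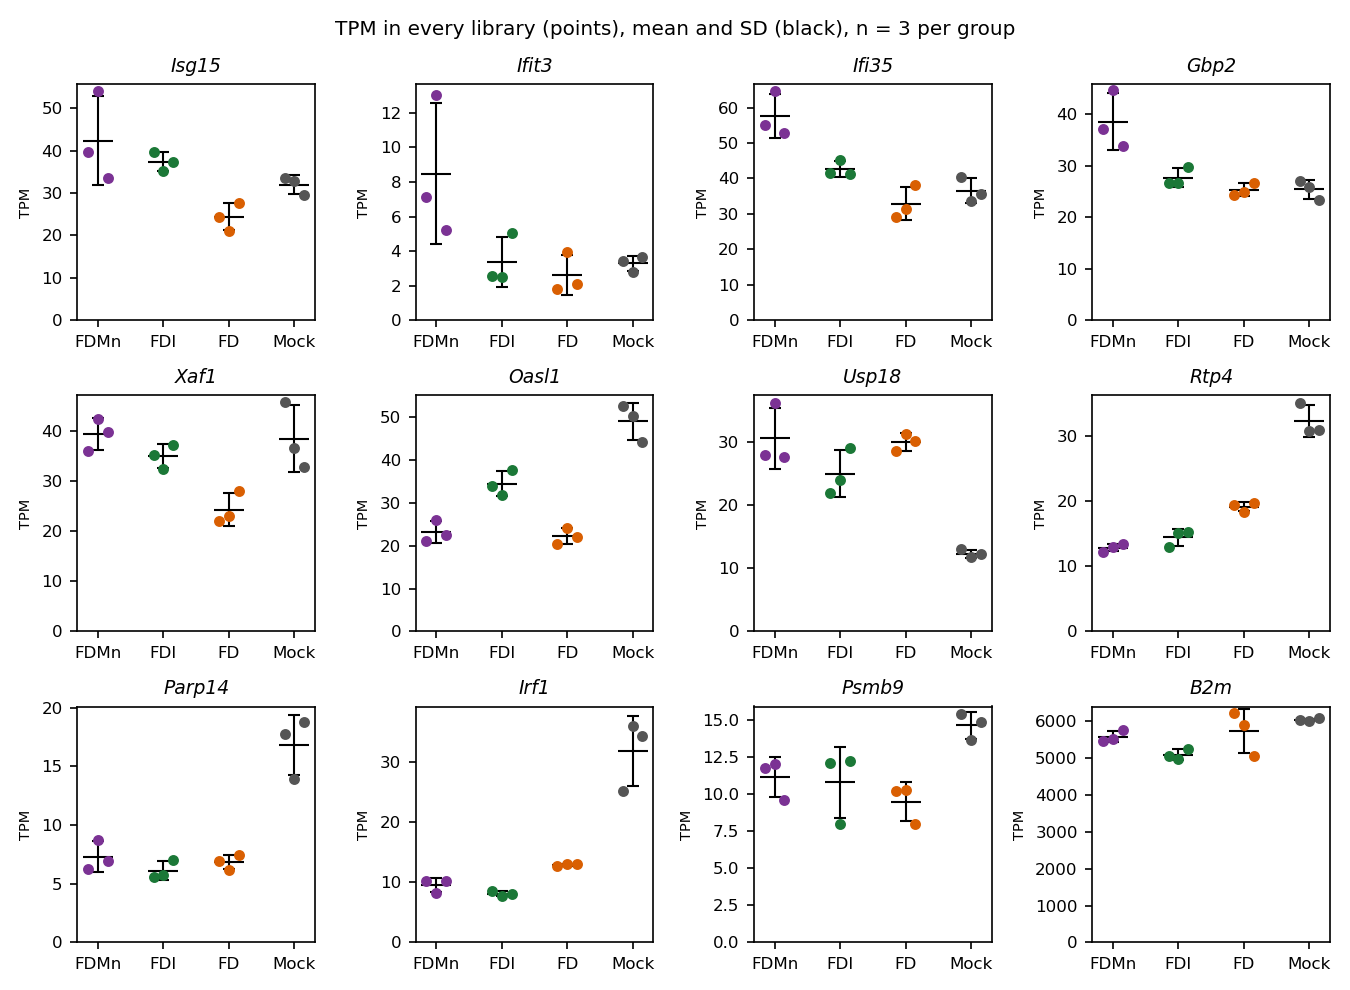
TPM of 12 members in every library (points) with the mean (long bar) and SD (whiskers), n = 3 per group, with FDMn, FDI, FD and Mock from left to right and a y axis that starts at 0. FD points of Oasl1, Rtp4, Parp14, Irf1 and Psmb9 lie below all Mock points, FD points of Usp18 above them, and FDMn points of Isg15, Ifit3, Ifi35, Gbp2 and Xaf1 above all FD points. B2m lies between 4976 and 6216 TPM in every library.

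**Figure D5:**
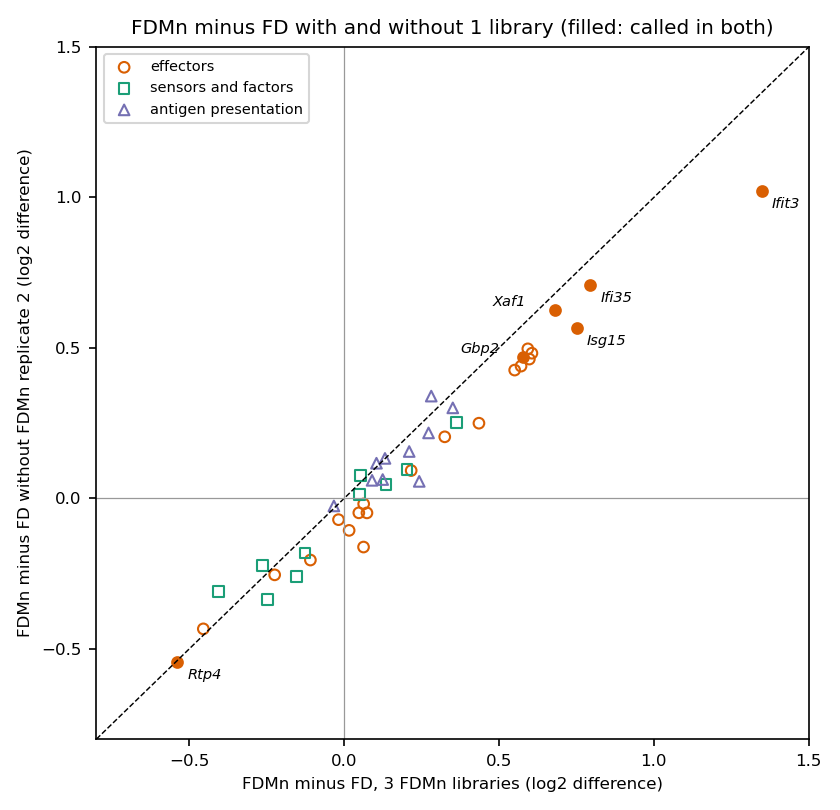
Log2 difference between FDMn and FD for the 43 tested members with all 3 FDMn libraries (x axis) and without FDMn replicate 2 (y axis), with symbols by role and filled symbols for members called in both fits. The dashed line marks equal values. Most points above 0.2 on the x axis lie under the line, and Isg15, Ifit3, Ifi35, Gbp2, Xaf1 and Rtp4 are called in both.

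Among the 10 sensors and factors, none was higher and 4 were lower (40%, against 29.9% of all genes) in FD than in Mock cells: Irf1, Irf3, Ddx58 and Dhx58. Irf1, a transcription factor that drives interferon-gamma target genes and MHC class I genes, showed the largest fall of all members. It had 10.2, 8.17 and 10.1 TPM in FDMn libraries, 8.57, 7.72 and 8.03 TPM in FDI libraries, 12.7, 12.96 and 12.96 TPM in FD libraries and 25.1, 36.00 and 34.3 TPM in Mock libraries. All 9 treated libraries lay below all Mock libraries, and FD libraries lay above all FDMn and FDI libraries. FD cells differed from Mock cells by -1.23 ± 0.13 (SE; adjusted p = 1.01e-05), or -1.07 with median-of-ratios scaling. FDI cells differed from FD cells by -0.61 ± 0.13 (SE; adjusted p = 0.00752). The difference between FDMn and FD cells, -0.40 ± 0.13 (SE; adjusted p = 0.051), did not pass, but it did with a pseudocount of 0.1 in place of 1. It was -0.31 without FDMn replicate 2 (adjusted p = 0.178). The GAS letters of the stretch shown above lie in its promoter window.

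Irf3, the factor that RNA sensors activate through phosphorylation, had 37.4, 40.6 and 37.96 TPM in FDMn libraries, 42.98, 41.3 and 38.5 TPM in FDI libraries, 37.99, 35.1 and 38.9 TPM in FD libraries and 51.6, 61.1 and 51.7 TPM in Mock libraries. Its FDMn, FDI and FD libraries overlapped and lay below all Mock libraries. The difference between FD and Mock cells was -0.54 ± 0.08 (SE; adjusted p = 0.000187). Ddx58, which encodes the RNA sensor RIG-I, had 16.01, 18.9 and 15.1 TPM in FDMn libraries, 17.6, 18.1 and 20.02 TPM in FDI libraries, 20.6, 20.03 and 19.1 TPM in FD libraries and 23.3, 28.3 and 28.5 TPM in Mock libraries. The FD and Mock libraries did not overlap, and the difference was -0.40 ± 0.10 (SE; adjusted p = 0.00725), a call that ended at -0.24 with median-of-ratios scaling.

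Dhx58, which encodes LGP2, a partner of RIG-I and MDA5, had 11.2, 15.3 and 12.6 TPM in FDMn libraries, 11.8, 13.1 and 12.7 TPM in FDI libraries, 9.64, 9.71 and 10.1 TPM in FD libraries and 14.5, 11.7 and 14.04 TPM in Mock libraries. FD libraries were the lowest, and the other groups overlapped. FD cells differed from Mock cells by -0.41 ± 0.11 (SE; adjusted p = 0.0124), a call that also ended with median-of-ratios scaling, at -0.26. FDMn cells differed from FD cells by 0.36 ± 0.11 (SE; adjusted p = 0.0488), and this call ended in 14 of the 18 alternatives, with adjusted p of 0.181 without FDMn replicate 2. Ifih1, which encodes the RNA sensor MDA5, had 14.8, 17.9 and 14.5 TPM in FDMn libraries, 9.75, 11.5 and 13.6 TPM in FDI libraries, 14.2, 14.2 and 14.1 TPM in FD libraries and 18.5, 16.6 and 16.8 TPM in Mock libraries. FDI libraries were the lowest, and all FDMn libraries lay above them. It was the 1 sensor called between FDMn and FDI cells, at 0.41 ± 0.11 (SE; adjusted p = 0.0256), and the call ended without FDMn replicate 2 (adjusted p = 0.105), and without FDI replicate 1 or 2.

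Stat2, the partner of IRF9 at the ISRE, had 33.7, 28.6 and 29.1 TPM in FDMn libraries, 29.3, 30.3 and 29.4 TPM in FDI libraries, 32.4, 41.5 and 36.9 TPM in FD libraries and 33.8, 33.1 and 34.98 TPM in Mock libraries. FDI and FD libraries did not overlap, and they differed by -0.30 ± 0.09 (SE; adjusted p = 0.0444). That call ended in 13 of the 18 alternatives, among them those without any 1 of the FDI or Mock libraries, FD replicate 2 or 3, or FDMn replicate 2 or 3 (adjusted p up to 0.149). Stat2 was called higher in FD against Mock with median-of-ratios scaling, at 0.27 (adjusted p = 0.0391). Irf7, the master factor of the type I response and the member of this group with the highest level, had 115, 135 and 99.8 TPM in FDMn libraries, 112, 104 and 100.2 TPM in FDI libraries, 108, 94.5 and 99.2 TPM in FD libraries and 108, 99.3 and 103 TPM in Mock libraries. The groups overlapped apart from FDMn replicate 2, which held the highest value. No comparison passed in the main result, and the difference between FDMn and FD cells was 0.20 (95% interval -0.00 to 0.41), or 0.10 without FDMn replicate 2. Irf7 was called higher in FDMn against Mock with either other scaling. Without FDMn replicate 3 it was called higher in FDMn against Mock and in FDMn against FD. Irf9, the DNA-binding partner of STAT2, and Trim25, the ubiquitin ligase of RIG-I, passed in no comparison of the main result and ranged over all libraries from 15.7 to 20.03 TPM and from 30.02 to 46.6 TPM. Irf9 was called lower in FDI against FD with either other scaling and without FD replicate 1. Trim25 was called lower in FD against Mock in 3 of the 18 alternatives. Eif2ak2, the double-stranded RNA kinase PKR, passed in FDI against Mock alone, at -0.34 ± 0.11 (SE; adjusted p = 0.0317), a call that ended with either other scaling and without FDI replicate 1 or 2 or Mock replicate 2 or 3 (adjusted p up to 0.124).

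Among the 10 genes of antigen presentation, none was higher and 6 were lower (60%, against 29.9% of all genes) in FD than in Mock cells: Psmb9, Psmb10, Tap1, Tap2, Tapbp and Nlrc5. This result rested on the scaling. With median-of-ratios scaling Psmb9 alone was called lower and H2-K1 was called higher, and with quantile normalization 1 was called lower. Psmb9, a catalytic subunit of the immunoproteasome, had 11.8, 12.04 and 9.60 TPM in FDMn libraries, 12.1, 8.01 and 12.3 TPM in FDI libraries, 10.2, 10.3 and 8.02 TPM in FD libraries and 15.4, 13.7 and 14.9 TPM in Mock libraries. FD libraries lay below all Mock libraries, at -0.58 ± 0.15 (SE; adjusted p = 0.00945), or -0.43 with median-of-ratios scaling, while FDMn, FDI and FD libraries overlapped.

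Tap1, a subunit of the peptide transporter whose start lies beside that of Psmb9, had 10.1, 14.8 and 9.30 TPM in FDMn libraries, 10.4, 9.81 and 10.7 TPM in FDI libraries, 8.38, 7.78 and 12.3 TPM in FD libraries and 16.1, 12.1 and 16.7 TPM in Mock libraries. FD replicate 3 lay above Mock replicate 2, so the groups overlapped although the difference passed at -0.62 ± 0.19 (SE; adjusted p = 0.0185). Nlrc5, the transactivator of MHC class I genes, was likewise called with overlapping groups. It had 4.98, 8.66 and 4.96 TPM in FD libraries against 7.90, 9.48 and 12.2 TPM in Mock libraries, at -0.61 ± 0.19 (SE; adjusted p = 0.0219). Both calls ended with median-of-ratios scaling and without FD replicate 1 or Mock replicate 3. That of Tap1 also ended without FD replicate 2 or Mock replicate 1, and that of Nlrc5 without FD replicate 3 (adjusted p up to 0.0701 for Tap1 and 0.0924 for Nlrc5 over the alternatives). Tapbp, or tapasin, which loads peptides onto class I molecules, had 113, 109.8 and 112 TPM in FDMn libraries, 109, 102 and 105 TPM in FDI libraries, 107, 103 and 103 TPM in FD libraries and 117, 119 and 113 TPM in Mock libraries. FD libraries lay below Mock libraries, at -0.16 ± 0.05 (SE; adjusted p = 0.0185), but the difference turned to 0.001 with median-of-ratios scaling. That call also ended without Mock replicate 1 or 2.

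B2m, the light chain of MHC class I, was the highest member and had 5466, 5513 and 5748 TPM in FDMn libraries, 5040.0, 4976 and 5250.2 TPM in FDI libraries, 6216, 5902 and 5059 TPM in FD libraries and 6022, 6012 and 6069 TPM in Mock libraries. It took between 0.498% and 0.622% of the transcripts of each library. FDMn and FDI libraries lay below all Mock libraries, and FD libraries spread from within the FDI range to above the Mock range. Its difference was -0.08 ± 0.07 (SE; adjusted p = 0.347) for FD against Mock and -0.25 ± 0.07 (SE; adjusted p = 0.0103) for FDI against Mock. H2-K1 averaged 3227 ± 36.9 TPM in FDMn, 3091 ± 164 TPM in FDI, 2945 ± 14.6 TPM in FD and 2828 ± 96.3 TPM in Mock cells (SD, n = 3 each). Its differences of 0.19 ± 0.05 (SE; adjusted p = 0.00566) for FDMn against Mock and 0.13 ± 0.05 (SE; adjusted p = 0.0467) for FDI against Mock were small in size, and the first was 0.19 without FDMn replicate 2 (adjusted p = 0.0184). The H2-K1 call for FDI against Mock ended in 13 of the 18 alternatives, among them those without any 1 of the FDMn or Mock libraries, FDI replicate 1 or 3, or FD replicate 1 (adjusted p up to 0.165), and that of B2m ended with median-of-ratios scaling or no filter on low values (up to 0.145). H2-D1 passed in no comparison of the main result, and was called higher in FDMn against Mock with median-of-ratios scaling (adjusted p = 0.0218).

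Psmb8, a second immunoproteasome subunit, was the 1 gene of antigen presentation called in FDMn against FD. It had 103, 105 and 86.4 TPM in FDMn libraries, 91.03, 84.99 and 71.9 TPM in FDI libraries, 75.9, 73.04 and 80.5 TPM in FD libraries and 83.4, 79.2 and 86.2 TPM in Mock libraries. FDMn libraries lay above all FD libraries, and FDI libraries overlapped with both. The difference was 0.35 ± 0.09 (SE; adjusted p = 0.0257), and the call ended without FDMn replicate 2 (adjusted p = 0.0983) and without FDMn replicate 1 or FD replicate 1 or 2. In the main result no gene of this group was called in FDI against FD or in FDMn against FDI. With quantile normalization 3 were higher in FDMn against FDI, Psmb8, Tapbp and B2m, against 7.4% of all genes. B2m was also called in both comparisons without FD replicate 3, and Psmb8 in FDMn against FDI without FDMn replicate 3. Of the 3 constitutive subunits that the immunoproteasome subunits replace, Psmb5, Psmb6 and Psmb7, none was called in FDMn against FD or FD against Mock. Psmb5 was higher in FDI than in FD cells at 0.37 ± 0.11 (SE; adjusted p = 0.0445), with overlapping libraries.

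Against Mock, FDMn cells had 9 members higher and 9 lower (20.9% each, against 12% and 30.6% of all genes). The 9 higher were Usp18, Ifit3, Ifi35, Oas1a, Mx2, Rsad2, Gbp2, Gbp3 and H2-K1, and the 9 lower were Ifit2, Oasl1, Parp9, Dtx3l, Parp14, Rtp4, Ddx58, Irf1 and Irf3. Oas1a, an oligoadenylate synthetase, had 11.6, 15.96 and 9.56 TPM in FDMn libraries against 6.75, 7.17 and 10.1 TPM in Mock libraries, and Mx2, annotated as a polymorphic pseudogene in GENCODE M21, had 2.94, 4.40 and 3.28 TPM in FDMn libraries against 3.29, 1.21 and 1.22 TPM in Mock libraries. Both were called with overlapping groups, at 0.56 ± 0.18 (SE; adjusted p = 0.0256) and 0.70 ± 0.24 (SE; adjusted p = 0.0308), and both calls ended without FDMn replicate 2 or Mock replicate 2, that of Oas1a also without Mock replicate 1 and that of Mx2 without FDMn replicate 3 or Mock replicate 3 (adjusted p up to 0.114 and 0.116). Without FDMn replicate 2, 5 were higher (Usp18, Ifi35, Rsad2, Gbp2 and H2-K1) and 11 lower, the same 9 among them. In that fit 10% of all genes were higher and 25.9% lower. With median-of-ratios scaling 14 members were higher, against 18.4% of all genes. FDI cells had 2 members higher than Mock cells (4.65%, against 12.9% of all genes), Usp18 and H2-K1, and 16 lower (37.2%, against 25.4%). Under median-of-ratios scaling 7 were higher and 11 lower, against 18.7% and 17.3% of all genes. Quantile normalization gave 2 higher and 13 lower, against 15.9% and 19.6% of all genes. In either direction 42.7% of all genes were called for FDMn against Mock and 38.3% for FDI against Mock. Under median-of-ratios scaling lower calls made up 48.7% of all calls in place of 71.8% for FDMn against Mock, and 48% in place of 66.3% for FDI against Mock. Irf1 differed most in both, by -1.63 ± 0.13 (SE; adjusted p = 8.15e-07) in FDMn cells, -1.54 without FDMn replicate 2, and by -1.83 ± 0.13 (SE; adjusted p = 3.54e-07) in FDI cells. Ifit2, an RNA-binding effector at the low end of the measured range, averaged 0.813 ± 0.237 TPM in FDMn, 0.760 ± 0.404 TPM in FDI, 1.51 ± 0.522 TPM in FD and 2.07 ± 0.199 TPM in Mock cells (SD, n = 3 each).

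Calls were also counted by promoter letters, as a description. In FDMn against FD, 5 of the 14 members with an ISRE core were higher, as were 4 of the 19 with a window that lacked it and 1 of the 11 without a window, against 7.22% of all genes tested. Without FDMn replicate 2 the counts were 3 of 14 (Isg15, Ifit3 and Gbp2), 2 of 19 (Ifi35 and Xaf1) and 0 of 11, against 4.66% of all genes. In FD against Mock, 2 of the 14 with an ISRE core were lower, as were 11 of the 19 without it and 6 of the 11 without a window, against 29.9% of all genes tested. With median-of-ratios scaling the counts were 1 of 14, 6 of 19 and 3 of 11, against 17.2% of all genes. The members with an ISRE core that were higher in FDMn cells were Isg15, Ifit3, Gbp2, Gbp3 and Gbp7, whose stretches are shown above. Ifi35 and Psmb8, also higher, held GAS letters and no ISRE core, while Ifi44 and Xaf1, also higher, held neither. Of the 8 members with GAS letters 3 were higher, Ifi35, Psmb8 and Gbp7, and the calls of Psmb8 and Gbp7 ended without FDMn replicate 2.

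Interferon genes other than Ifnk were nearly silent. Of 9 searched, Ifna1, Ifna4, Ifne, Ifnl2 and Ifnl3 were listed at 0 in all 12 libraries, and Ifna2, Ifnb1 and Ifng stayed at or below 0.305 TPM. Ifnk alone was tested, at 8.00 ± 1.19 TPM in FD and 5.25 ± 0.307 TPM in Mock cells (SD, n = 3 each), a difference of 0.52 ± 0.19 (SE; adjusted p = 0.0462). Of 15 receptor and proximal signalling genes 13 were tested. In FD against Mock, 7 were lower (53.8%, against 29.9% of all genes) and none higher. With median-of-ratios scaling 6 of the 13 were lower, against 17.2% of all genes. Ifngr1, the ligand-binding chain of the interferon-gamma receptor, differed by -0.85 ± 0.08 (SE; adjusted p = 2.96e-06), Il10rb, a shared chain of the type III receptor, by -0.90 ± 0.09 (SE; adjusted p = 1.07e-05), and Irf2, a factor that competes with IRF1, by -0.65 ± 0.09 (SE; adjusted p = 8.08e-05). Ifnar1, a chain of the type I receptor named here after its values were seen, differed by -0.78 ± 0.11 (SE; adjusted p = 0.000137). None of the 13 was called in FDMn against FD, with or without FDMn replicate 2. In FDI against FD, Ifngr1 was higher by 0.35 ± 0.08 (SE; adjusted p = 0.00933) and Irf2 lower, at -0.31 ± 0.09 (SE; adjusted p = 0.0326). These were 7.69% each, against 10.2% and 4.35% of all genes. FDMn against FDI gave 2 higher, Jak1 and Ifnar2, and 1 lower, Ifngr1 (15.4% and 7.69%, against 5.68% and 11.9% of all genes). Without FDMn replicate 2 the call of Ifnar2 ended.

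Of 12 genes of interferon induction 10 were tested. In FD against Mock 2 were higher and 4 lower (20% and 40%, against 11.2% and 29.9% of all genes). With median-of-ratios scaling, and likewise with quantile normalization, 4 were higher and 4 lower. Of all genes, 17.8% were higher and 17.2% lower with the first, and 15.4% and 18.9% with the second. Irf5, a factor downstream of Toll-like receptors, averaged 4.76 ± 0.192 TPM in FD and 26.3 ± 1.28 TPM in Mock cells (SD, n = 3 each), a difference of -2.24 ± 0.11 (SE; adjusted p = 9.33e-09). Tlr3, the endosomal receptor for double-stranded RNA, differed by -1.76 ± 0.20 (SE; adjusted p = 2.48e-05), and Irf2bp2, a corepressor that binds IRF2, was higher by 1.34 ± 0.07 (SE; adjusted p = 2e-08). In FDMn against FD, Irf5 was higher by 0.57 ± 0.11 (SE; adjusted p = 0.00361) and the kinase gene Ikbke by 0.48 ± 0.11 (SE; adjusted p = 0.0154), and none was lower (20% and 0%, against 7.22% and 7.9% of all genes). In the fit that left out FDMn replicate 2 these were 0.61 (adjusted p = 0.011) and 0.43 (adjusted p = 0.0619), so the call of Ikbke ended. In FDI against FD, Irf2bp2 and Irf5 were higher (20%, against 10.2% of all genes). None was called in FDMn against FDI.

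A further 39 interferon-induced genes outside the 44 gave 31 that were tested. In FD against Mock, 13 were lower (41.9%, against 29.9% of all genes) and none higher. With median-of-ratios scaling 6 of the 31 were lower and 1 higher, against 17.2% and 17.8% of all genes. Ifi47, an immunity-related GTPase, averaged 4.11 ± 0.759 TPM in FD and 16.9 ± 2.95 TPM in Mock cells (SD, n = 3 each), a difference of -1.81 ± 0.16 (SE; adjusted p = 2.29e-06), and Irgm1 and Gbp6, GTPases of the same defence systems, differed by -0.88 and -0.76. In FDMn against FD, 5 were higher (16.1%, against 7.22% of all genes) and none lower: Isg20, Trim30a, Zbp1, Gbp6 and Znfx1. The same 5 were called without FDMn replicate 2. Isg20, an exonuclease, averaged 12.1 ± 1.31 TPM in FDMn and 6.31 ± 1.12 TPM in FD cells (SD, n = 3 each), a difference of 0.84 ± 0.12 (SE; adjusted p = 0.000811). Zbp1, a sensor of Z-form nucleic acid, differed by 0.78 ± 0.13 (SE; adjusted p = 0.00185). The differences of Isg20 and Zbp1 were 0.76 and 0.68 without FDMn replicate 2. In FDI against FD, Isg20 was higher, and the GTPase genes Iigp1 and Irgm2 were lower, at -0.80 and -0.42 (3.23% and 6.45%, against 10.2% and 4.35% of all genes). In FDMn against FDI, 5 were higher (16.1%, against 5.68% of all genes) and none lower, and Iigp1 differed most, by 1.22 ± 0.17 (SE; adjusted p = 0.000387). Without FDMn replicate 2, 2 were higher, Iigp1, at 1.00, and Trim30a, against 3.5% of all genes.

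A further 21 genes of antigen presentation gave 17 that were tested. In FD against Mock 1 was higher and 5 lower (5.88% and 29.4%, against 11.2% and 29.9% of all genes). With median-of-ratios scaling 4 of the 17 were higher and 4 lower, against 17.8% and 17.2% of all genes. H2-Q4 and H2-Q6, non-classical class I genes, were lower in FD than in Mock cells, at -1.35 ± 0.07 (SE; adjusted p = 2.33e-08) and -0.98 ± 0.09 (SE; adjusted p = 2.36e-06), and Tapbpl, a relative of tapasin, at -0.57 ± 0.09 (SE; adjusted p = 0.000242). In FDMn against FD, 3 were higher and 4 lower (17.6% and 23.5%, against 7.22% and 7.9% of all genes). H2-Q4 was higher by 0.56 ± 0.07 (SE; adjusted p = 0.000298), while Calr and Pdia3, chaperones of class I loading and of protein folding at large, were lower, at -0.93 ± 0.07 (SE; adjusted p = 1.17e-05) and -0.38 ± 0.05 (SE; adjusted p = 0.000487). The same 7 genes were called without FDMn replicate 2, with 0.51 for H2-Q4, -0.99 for Calr and -0.42 for Pdia3. In FDI against FD, H2-Q4 and H2-Q6 were higher by 0.57 ± 0.07 (SE; adjusted p = 0.000251) and 0.56 ± 0.09 (SE; adjusted p = 0.000997). In that comparison 3 of the 17 were higher and 1 lower (17.6% and 5.88%, against 10.2% and 4.35% of all genes). FDMn against FDI gave 1 higher and 3 lower (5.88% and 17.6%, against 5.68% and 11.9% of all genes). Without FDMn replicate 2 these counts stayed the same, against 3.5% and 8.49% of all genes. Class I relatives share sequence, so their levels are uncertain.

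Hepatocyte markers were high in every library, with Alb, Apoa1, Ttr, Hnf4a, Cyp2e1 and Serpina1c summing to 33860 to 34500 TPM in FDMn, 29070 to 29650 TPM in FDI, 29580 to 39450 TPM in FD and 31230 to 32400 TPM in Mock libraries. Immune cells also express these members. The 10 Kupffer cell and macrophage markers summed to 7.06 to 8.23 TPM in FDMn, 5.47 to 7.2 TPM in FDI, 4.72 to 5.89 TPM in FD and 3.94 to 5.51 TPM in Mock libraries. FDMn libraries thus lay above FD libraries, where 10 members were higher. Of the 10 markers 3 were tested, Marco, C1qa and C1qb, and none was called in any of the 4 main comparisons. Their differences between FDMn and FD cells were 0.10, -0.06 and 0.51. Another 5, Clec4f, Vsig4, Adgre1, Cd5l and Timd4, stayed under 1 TPM everywhere. The part of such cells in the result was not tested, and in bulk samples fewer cells of a type and less RNA per cell cannot be told apart. The 10 lymphocyte and natural killer markers summed to at most 0.443 TPM in any library, and Nkg7 and Ncr1 were listed at 0 in all 12. The 4 dendritic cell markers summed to at most 0.949 TPM, and Siglech was listed at 0 in all 12. The 4 cholangiocyte markers summed to 1359 to 1551 TPM in FDMn, 650.3 to 698 TPM in FDI, 676 to 735 TPM in FD and 897 to 964 TPM in Mock libraries, nearly all of it Spp1, and Krt19 and Epcam were not tested because they were low. The 2 tested, Sox9 and Spp1, were both lower in FD than in Mock cells. Both were higher in FDMn than in FD cells, at 0.54 (adjusted p = 0.00594) and 1.06 (adjusted p = 1.24e-06). Without FDMn replicate 2 these were 0.52 (adjusted p = 0.0275) and 1.00 (adjusted p = 1e-05). Between FDMn and FDI cells Sox9 was lower and Spp1 higher, at -0.66 and 1.16. The 6 endothelial markers summed to 22.9 to 26.2 TPM in FDMn, 16.7 to 22.1 TPM in FDI, 19.1 to 27.7 TPM in FD and 15.2 to 16.1 TPM in Mock libraries. Of the 4 tested, Cdh5 and Lyve1 were higher in FD than in Mock cells, at 0.51 ± 0.11 (SE; adjusted p = 0.00384) and 1.35 ± 0.21 (SE; adjusted p = 0.000286), in the comparison where 19 members were lower and 2 higher. Stellate and fibroblast markers summed to 3.78 to 4.92 TPM in FDMn, 3.37 to 3.54 TPM in FDI, 4.26 to 5.01 TPM in FD and 3.19 to 4.3 TPM in Mock libraries, and 1 of the 2 tested was higher in FD than in Mock cells. The part of these cells in the result was not tested.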

How the data were processed

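The authors deposited 1 table of gene-level TPM for 12 libraries and 36144 gene symbols. The submitters' processing notes name kallisto 0.44.0, DESeq2 and the build GRCm38.p6. What DESeq2 was used for, the annotation release, the strand setting and any filters: not given in the sources used here. Each deposited TPM column sums to 1000000, so values are shares of a library, depth is unknown, and no counting interval is given. Groups came from the sample titles.

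Genes with at least 1 TPM in at least 3 of 12 libraries were kept, and log2(TPM + 1) was fitted with limma 3.58.1 in R 4.3.3, with 1 term per group over all 12 libraries and an intensity trend. Tests are two-sided, with Benjamini-Hochberg adjustment over 11544 genes and a threshold of 0.05. The script was tested on simulated data. Each result was recomputed under 18 alternatives: a pseudocount of 0.1, no filter, median-of-ratios scaling, quantile normalization, only the 2 groups compared, a replicate block, and each of the 12 libraries left out.

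The 44 members and all lists were chosen with earlier results of these data known. Values in every library are given for the member of each role with the highest mean, and for up to 3 members per role and comparison with the smallest adjusted p. Of the other lists, up to 3 genes per comparison are named by the same order. Isg15, Ifit3, Rsad2, Parp14, Gbp3, Gbp7, Nlrc5, H2-K1, Mx1, Ifit2, Ifit3b, Znfx1 and a few others outside this rule were named after their values were seen. Locations, overlaps and shared 31-base words come from GENCODE M21 on GRCm38, and promoters from RefSeq on GRCm38.p6. Mb21d1 and H2-L were not found under these symbols.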

Additional observations from a re-analysis of the deposited data

How the results depend on the processing

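Counts of members called depended on scaling wherever Mock was involved, and also in FDMn against FDI. There quantile normalization gave 9 higher (main result 6). With median-of-ratios scaling FD against Mock gave 6 higher and 10 lower (main result 2 and 19) and FDMn against Mock 14 higher (9). FDI against Mock gave 7 higher and 11 lower with that scaling (2 and 16). Quantile normalization gave 11 lower in FD against Mock and 13 lower in FDI against Mock. The FD and Mock difference of Tapbp turned to 0.001411 with median-of-ratios scaling, the 1 called member to change sign. Without the filter on low values, FDI against FD had 2 lower (4), FDMn against FDI 2 higher (6) and FDI against Mock 1 higher (2). A pseudocount of 0.1 gave 2 lower in FDMn against FD (1). With only the 2 groups compared, FDI against FD had 3 higher (5) and 2 lower (4).

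With 1 library left out at a time, FDMn against FD ranged from 5 to 11 higher and from 1 to 2 lower, lowest without FDMn replicate 2 (5) and FD replicate 2 (6). FDI against FD ranged from 1 to 5 higher and from 2 to 5 lower: 1 higher without FDI replicate 3, 2 without FDI replicate 1, FD replicate 1 or FD replicate 2, and 3 without FDI replicate 2. Its lower count was 2 without FDMn replicate 2 or 3, FDI replicate 1 or 2, FD replicate 2, or any Mock replicate. FDMn against FDI ranged from 1 to 7 higher, with 1 without FDMn replicate 2 or FDI replicate 1 and 3 without FDMn replicate 1 or FDI replicate 2. FDMn against Mock ranged from 5 to 12 higher, lowest without FDMn replicate 2, and FDI against Mock from 1 to 2. The cause was not tested.

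Same-numbered libraries did not deviate together: r lay between -0.0976 and 0.0684 over 18 pairs. This check cannot tell whether the numbers pair the samples by design. With a replicate block, FDI against FD had 4 higher and 2 lower, FDI against Mock 1 higher, FDMn against FD 8 higher and 1 lower, and FD against Mock 2 and 19. Of the members called, 12 of 21 kept their call under all 18 alternatives in FD against Mock, 6 of 11 in FDMn against FD, 3 of 9 in FDI against FD and 2 of 7 in FDMn against FDI.

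Over all genes, median-of-ratios scaling gave 2054 higher and 1982 lower in FD against Mock (main result 1296 and 3447) and 2129 and 2018 in FDMn against Mock (1390 and 3535), and quantile normalization gave 2178 and 2314 lower in these comparisons and 909 lower in FDMn against FDI (1375). With only the 2 groups compared, FDI against FD gave 681 higher and 304 lower (1172 and 502), with 321 lower without FDI replicate 1 and 733 higher without FDI replicate 3. FDMn against FD gave 478 higher and 540 lower without FDMn replicate 1 (834 and 912) and 538 higher without FDMn replicate 2. FDMn against FDI gave 404 to 437 higher (656) without FDMn replicate 1 or 2 or FDI replicate 1 or 2.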
